A study of Mus musculus with 30 samples.

Results

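The prolactin receptor (Prlr), its kinase (Jak2), the transcription factors that the kinase activates (Stat5a, Stat5b) and 5 genes that STAT5 is known to switch on (Cish, Socs1, Socs2, Socs3, Pim1) were followed through 30 mouse RNA-seq libraries. The 9 genes were taken by symbol, and all 9 were found among the 22609 gene rows of every library. In GRCm38, Prlr lies at chr15:10177238-10349180 on the plus strand, Stat5a, Stat5b and Socs3 on chromosome 11, Jak2 on 19, Cish on 9, Socs1 on 16, Socs2 on 10 and Pim1 on 17. All 9 passed the filter on low counts in every comparison, so none was left untested. All mice were C57BL/6J, 10 to 12 weeks old, and carried no stated allele. Both tissues of the study were sequenced, hind paw and dorsal root ganglion (DRG, the ganglion that holds the cell bodies of the sensory neurons that supply the paw). In each tissue, 3 libraries came from each of 5 groups: female prolactin with the suffix Sh (PRL_Sh), female prolactin (PRL), female vehicle (Veh), male PRL and male Veh. Prolactin was given as 1 µg into the paw, and the vehicle named in the protocol was phosphate-buffered saline. The protocol lists a lone injection and daily injections for 12 days without saying which library had which, and what Sh stands for is unstated. The PRL_Sh libraries were made with an mRNA kit and the other 24 by rRNA depletion. The series title places the study on the prolactin receptor and on sex differences in pain responses to prolactin.

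Prolactin is a pituitary hormone that binds a receptor of the cytokine receptor class, which has no kinase of its own. The receptor carries JAK2, which phosphorylates STAT5A and STAT5B when hormone binds. These enter the nucleus and raise transcription of Cish and the Socs genes, whose proteins damp the same receptors, and of Pim1, a serine/threonine kinase linked to cell survival. Many cytokine receptors other than Prlr feed the same kinase and STATs, and Socs1 and Socs3 are also induced through STATs other than STAT5. In sensory ganglia the receptor is studied for its part in pain that differs between females and males.

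The STAT5 recognition motif TTCNNNGAA reads the same on both strands, so a match counts for each. It was searched in RefSeq promoter windows of GRCm38.p6, from 250 bases before to 50 after each annotated start. Of 32851 such windows, 8.30% held the motif and 0.457% held it at least 2 times, and 9.55% of the 27025 genes had it in a window. Of the 8 members with a window, 3 had a match: Cish with 2, beginning at positions 1 and 12, Socs3 with 1, at position -154, and the second of 3 Prlr starts with 1, at position -110, where the start base is position 1. No match was found in the windows of Jak2, Stat5a, Stat5b, Socs1 and Pim1. The bases that follow the start were found in a GENCODE transcript of the same gene for Cish. They were not found for Socs3 or for the second Prlr start, so these starts are less certain. The 3 windows with a match are shown with the motif in capitals, and that of Socs1, the member with the largest change in prolactin-injected male paw, is shown for comparison. Each runs 5′ to 3′ in the direction of the gene, to the base before its start, or for Cish to the end of its second match.
Cish, chr9:107296409-107296678, plus strand: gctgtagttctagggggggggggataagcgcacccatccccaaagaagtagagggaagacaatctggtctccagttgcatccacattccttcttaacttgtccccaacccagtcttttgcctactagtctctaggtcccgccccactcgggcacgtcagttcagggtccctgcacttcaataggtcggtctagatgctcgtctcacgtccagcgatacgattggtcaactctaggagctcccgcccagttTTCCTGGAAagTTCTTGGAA
Socs3, chr11:117969367-117969616, minus strand: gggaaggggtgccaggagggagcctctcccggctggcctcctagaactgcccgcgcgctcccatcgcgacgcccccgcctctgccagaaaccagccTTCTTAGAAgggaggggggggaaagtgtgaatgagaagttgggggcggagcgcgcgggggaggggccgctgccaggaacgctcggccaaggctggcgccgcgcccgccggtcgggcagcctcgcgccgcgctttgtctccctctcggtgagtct
Prlr, second start, chr15:10223656-10223905, plus strand: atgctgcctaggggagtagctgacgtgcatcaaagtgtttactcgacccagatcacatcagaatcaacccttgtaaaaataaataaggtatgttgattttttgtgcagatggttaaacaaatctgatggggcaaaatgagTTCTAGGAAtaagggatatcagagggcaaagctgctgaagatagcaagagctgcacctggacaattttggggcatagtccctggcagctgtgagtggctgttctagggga
Socs1, chr16:10785537-10785786, minus strand: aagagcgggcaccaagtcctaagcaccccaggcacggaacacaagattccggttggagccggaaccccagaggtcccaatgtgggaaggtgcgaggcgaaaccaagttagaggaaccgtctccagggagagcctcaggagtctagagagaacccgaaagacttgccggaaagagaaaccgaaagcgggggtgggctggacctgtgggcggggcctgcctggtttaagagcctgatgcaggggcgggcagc
A match in these windows is a run of letters and no measure of binding.

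Reads assigned to genes ranged from 6.87 to 13.5 M (mega) per rRNA-depleted paw library and from 8.99 to 13.3 M per rRNA-depleted DRG library. They ranged from 21.8 to 23.2 M in PRL_Sh paw and from 21.96 to 26.5 M in PRL_Sh DRG. The lowest was male paw Veh replicate 2, which stood apart: 13.6% of its reads fell in genes and 55.5% were multiply placed, against 22.3 to 26.2% and 41.5 to 44.8% in the other 11 rRNA-depleted paw libraries. Changes of the members in paw, PRL against Veh, that passed are given with it and also without it. Changes of pathway and marker genes are given with it only. Levels are given as CPM, the usual unit in which the read count of a gene is scaled to a fixed total of gene reads per library. Xist and 4 Y-linked genes matched the labelled sex in all 30 libraries, although the series text counts 18 males and 12 females where the labels list 18 female and 12 male libraries. The sensory neuron sodium channel Scn10a was at 872.9 to 1275 CPM in DRG and at no more than 1.73 CPM in paw, and the skin keratin Krt10 was at 14180 to 28390 CPM in paw, against 3.56 to 40.7 CPM in DRG. Labels do not state that the 3 libraries of a group come from separate mice, so each p-value rests on a spread between libraries that may be technical.

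Most members were higher in paw than in DRG, as the tissues differed in most genes. In vehicle libraries, averaged over the sexes, 8 of 9 members were higher in paw than in DRG at an adjusted p below 0.05 (edgeR's quasi-likelihood test with Benjamini-Hochberg adjustment), where 43.2% of all genes tested were higher and 85.4% differed in either direction. The kinase gene Pim1 differed most, 15.2-fold, a log2 difference of 3.93 ± 0.12 (SE). It had 120.7 to 134.7 CPM in the 3 female and 101.5 to 146.1 CPM in the 3 male paw Veh libraries, against 8.69 to 9.70 CPM in the female and 6.74 to 8.79 CPM in the male DRG Veh libraries. Every paw library was far above every DRG library for this gene, in PRL and PRL_Sh libraries as well.

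The receptor showed the same contrast. Prlr had 95.6, 104.3 and 91.8 CPM in female and 72.2, 67.6 and 66.5 CPM in male paw Veh libraries. It had 11.5, 13.2 and 14.3 CPM in female and 15.5, 11.2 and 13.2 CPM in male DRG Veh libraries. The log2 difference, paw over DRG, was 2.67 ± 0.13 (adjusted p = 7.99e-14), or 6.36-fold. Socs3, a feedback inhibitor best known for damping signals of the interleukin-6 class, was 2.71 ± 0.17 higher on the log2 scale. The same test gave log2 differences of 2.21 ± 0.13 for Stat5a, 2.08 ± 0.17 for Cish, an inhibitor that docks on activated receptors, and 1.54 ± 0.28 for Socs1, which inhibits JAK kinases directly. The more evenly shared members were Stat5b at 0.72 ± 0.11 and Jak2 at 0.43 ± 0.07. Socs2, which limits growth hormone signalling, stood apart: it had 10.4 to 19.0 CPM in female and 9.35 to 12.5 CPM in male paw Veh libraries, against 14.6 to 17.1 CPM in female and 10.9 to 17.4 CPM in male DRG Veh libraries. Its log2 difference of -0.27 (95% interval -0.63 to 0.08) did not pass the test (adjusted p = 0.142), and the libraries of the tissues overlapped. Without female paw Veh replicate 1 it passed, at -0.39 (adjusted p = 0.0467). With the mean log2 CPM of 12 skeletal muscle genes as a covariate, the log2 difference of Stat5b was 0.37 (adjusted p = 0.0216). Muscle itself differed between the tissues, so that fit cannot fully separate muscle from tissue. Those genes summed to 4038 to 14170 CPM in female and 4180 to 18100 CPM in male paw Veh libraries. In DRG Veh libraries the sums were 128.6 to 488.7 CPM in females and 107.0 to 2321 CPM in males. In bulk tissue, more cells that express a gene and more RNA per cell cannot be told apart.

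**Figure D1:**
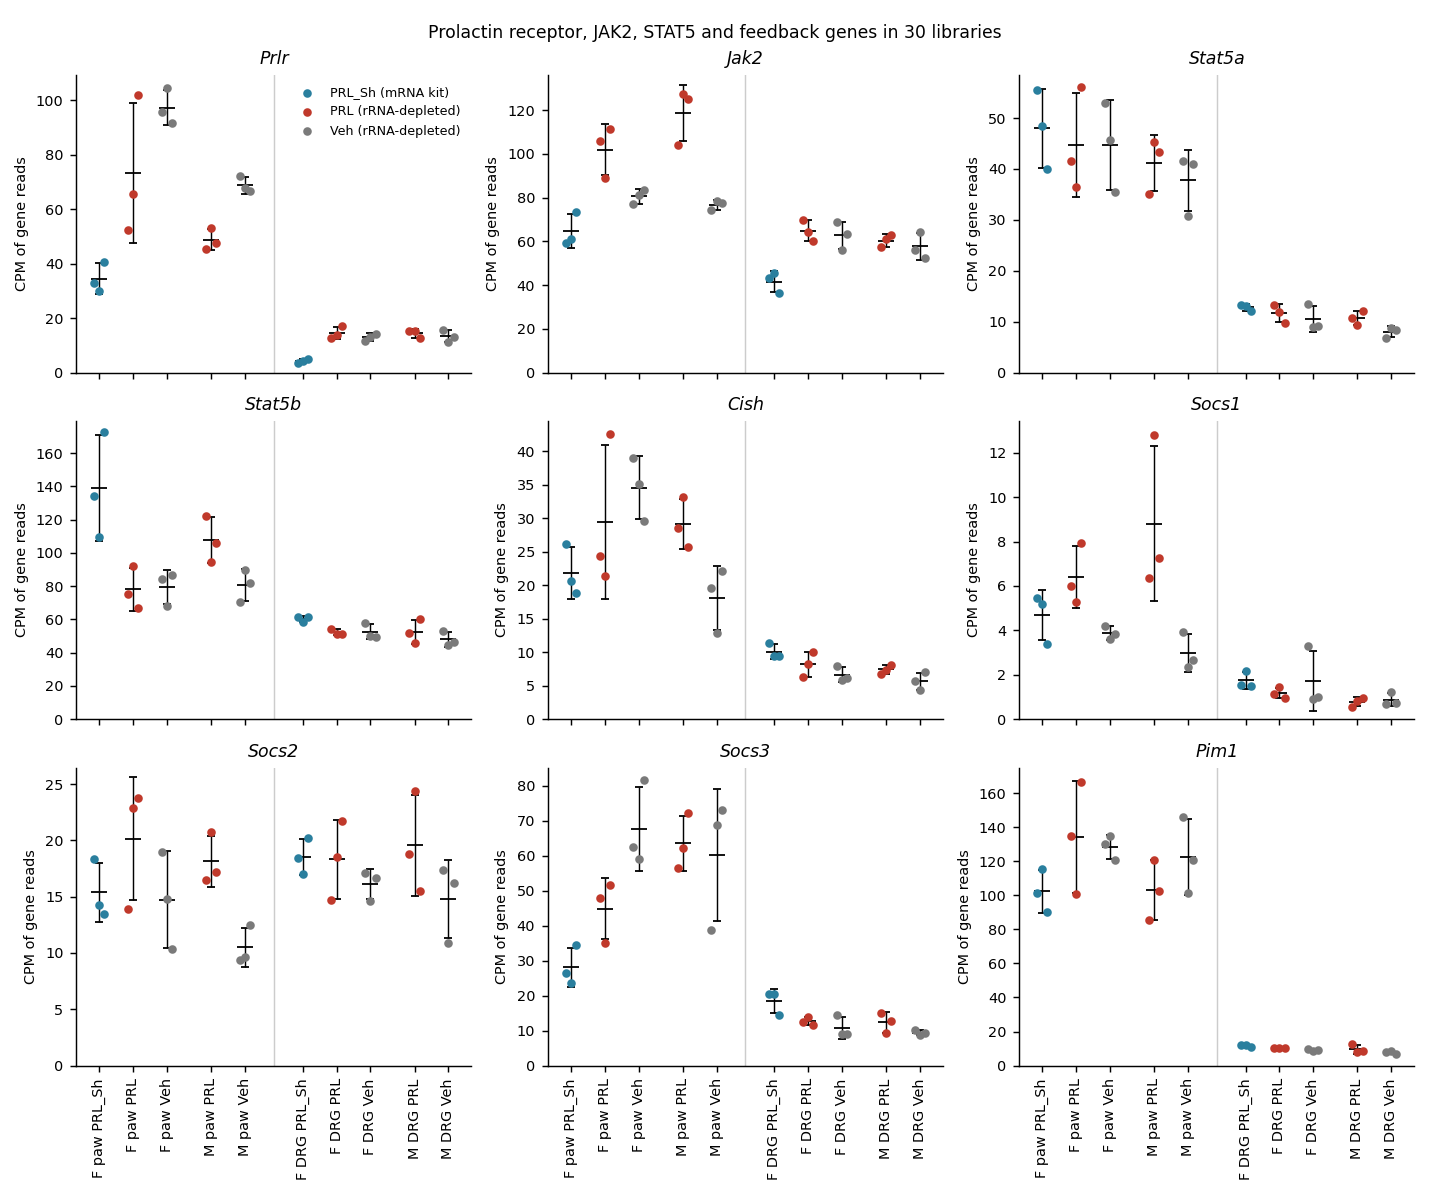
Level of each of the 9 member genes in every library, as CPM of gene reads on a linear axis from 0, with paw groups to the left of the grey line and DRG groups to its right. F and M are female and male, each point is 1 library, and the bar and whiskers are the mean ± SD of 3. All paw points lie above all DRG points for Prlr and Pim1, and the tissues overlap for Socs2.

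**Figure D2:**
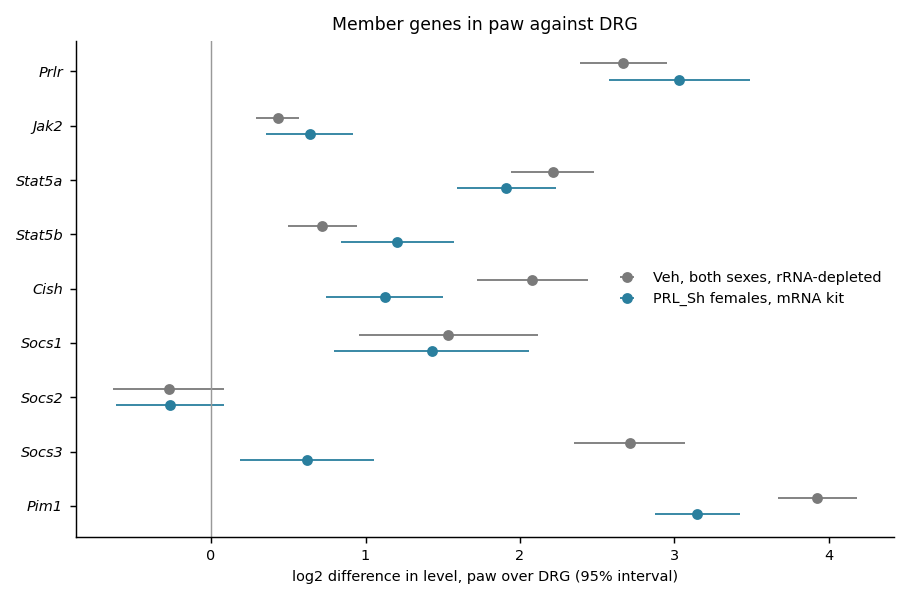
Log2 difference in level, paw over DRG, with the 95% interval of edgeR's fit, in Veh libraries of both sexes (grey) and in PRL_Sh libraries of females (blue). Pim1 lies furthest to the right in both sets, and the interval of Socs2 spans 0 in both.

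The 6 PRL_Sh libraries, made with another kit, gave the same 8 members higher in paw and again not Socs2, where 39.9% of all genes tested were higher and 80.2% differed in either direction. Prlr had 32.7, 29.9 and 40.7 CPM in PRL_Sh paw, against 3.31, 4.23 and 5.09 CPM in PRL_Sh DRG, a log2 difference of 3.03 ± 0.19 (edgeR adjusted p = 3.38e-06). Stat5a differed by 1.91 ± 0.14. The log2 differences were 3.15 ± 0.12 for Pim1, 1.12 ± 0.16 for Cish and 0.62 ± 0.19 for Socs3 in PRL_Sh, and the intervals of all 3 lay below those in Veh libraries, a gap that was not tested. Socs3 had 26.3, 23.7 and 34.3 CPM in PRL_Sh paw, against 20.4, 20.3 and 14.4 CPM in PRL_Sh DRG, and its call was lost without the third of these DRG libraries (0.45, adjusted p = 0.0550). Socs1, Stat5b and Jak2 differed by 1.43 ± 0.27, 1.21 ± 0.16 and 0.64 ± 0.12. Socs2 differed by -0.26 ± 0.15 (adjusted p = 0.137), and passed at -0.41 (0.0294) without PRL_Sh paw replicate 1.

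Per kilobase of merged exons (GENCODE, GRCm38), Pim1 was the most abundant member in Veh paw, at 37.4 CPM per kb, ahead of Socs3 at 22.1, Jak2 at 15.6 and Stat5b at 14.5 CPM per kb. Prlr stood at 5.41 CPM per kb in paw, near Stat5a at 5.78. In Veh DRG the order was headed by Jak2 at 12.0 and Stat5b at 9.07 CPM per kb, and Prlr stood at 0.858 CPM per kb, with Socs1 alone below it at 0.447. Both orders are descriptions, since all transcript forms of a gene were merged, and the merged Prlr exons span 15.34 kb, which lowers its value per kilobase. Counts per gene also do not separate the long and short forms of the receptor.

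In paw, prolactin libraries held more of the kinase and of 2 feedback inhibitors and less of the receptor. Averaged over the sexes, 4 of 9 members passed the test against Veh, where 24.9% of all genes tested did: Jak2, Socs1 and Socs2 rose and Prlr fell. The median log2 change of the 9 was 0.21, and that of all genes was near 0. No member passed in females alone, where 7.55% of all genes did, and 3 passed in males alone, where 22.4% did. Without male Veh replicate 2 the average changes were -0.45 for Prlr (adjusted p = 0.0470), 0.50 for Jak2 (0.00109), 1.07 for Socs1 (0.00446) and 0.60 for Socs2 (0.0422). An unadjusted p below 0.05 was found for 4 members on average, 4 in females and 6 in males, where 37.6%, 20.6% and 35.9% of all genes had one. DESeq2 called 1 in females, Jak2, and 5 in males. Over all genes 14.9% rose and 10% fell on average, and 12.3% rose in males. PRL and Veh libraries did not overlap for 3 members in females and 6 in males, as for 24.1% of all genes in females and 39.1% in males.

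The receptor gene Prlr had 52.4, 65.4 and 102.1 CPM in female PRL paws, against 95.6, 104.3 and 91.8 CPM in female Veh paws. It had 45.5, 53.0 and 47.7 CPM in male PRL paws, against 72.2, 67.6 and 66.5 CPM in male Veh paws. All 3 male PRL libraries lay below all 3 male Veh libraries, whereas the third female PRL library lay within the female Veh range. The log2 change was -0.41 ± 0.19 in females (edgeR adjusted p = 0.241) and -0.47 ± 0.19 in males (0.0923). Averaged over the sexes it was -0.44 ± 0.13 (0.0299), equal to 0.737 times the Veh level. The male change passed in 2 of 13 alternatives, by DESeq2 (adjusted p = 0.0435) and in a fit of the male groups alone (0.00600 by edgeR). In the rest its adjusted p was up to 0.208. The call on the average was lost without female PRL replicate 2 (adjusted p = 0.0633), female Veh replicate 1 (0.0512) or 2 (0.0690), male PRL replicate 3 (0.0666) or male Veh replicate 1 (0.0533). Without female PRL replicate 3 the fall in females was 0.72 on the log2 scale (adjusted p = 0.00234). That library held 727.9 summed CPM of 12 skeletal muscle genes, against 5284 and 14670 CPM in the other female PRL paws. With muscle as a covariate the female change was -0.60 (adjusted p = 0.0220). Of 13 alternatives, only that covariate and leaving out female PRL replicate 3 called the female change. In the rest its adjusted p was up to 0.589. Whether muscle content accounts for the Prlr level of that library was not tested.

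Jak2, the kinase bound to the receptor, went the other way. It had 105.9, 88.8 and 111.3 CPM in female PRL paws, against 76.8, 81.2 and 83.6 CPM in female Veh paws, and 104.2, 127.2 and 125.1 CPM in male PRL paws, against 74.2, 78.5 and 77.3 CPM in male Veh paws. Groups did not overlap in either sex. The log2 change was 0.65 ± 0.09 in males (edgeR adjusted p = 7.48e-04), 1.57-fold, and 0.68 (0.00363) without male Veh replicate 2. It was 0.34 ± 0.09 in females (0.0510). The female change passed in 2 of 13 alternatives, by DESeq2 (0.32, adjusted p = 0.0273) and without female PRL replicate 2 (0.42, 0.0213 by edgeR). In the rest its adjusted p was up to 0.162. The average, 0.50 ± 0.07 (adjusted p = 2.65e-04), kept its call in all 18 alternatives run on it.

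The STAT5 genes gave no call in paw. Stat5b, the main STAT of growth hormone signalling in liver, had 122.5, 94.7 and 106.1 CPM in male PRL paws, against 70.6, 89.7 and 82.0 CPM in male Veh paws, which do not overlap. Its log2 change in males was 0.45 ± 0.17 (edgeR adjusted p = 0.0814). In females it had 75.1, 92.4 and 66.8 CPM with PRL, against 84.2, 67.9 and 86.8 CPM with Veh, a change of -0.03 (interval -0.40 to 0.34). Stat5a, the form first found in mammary gland, changed by 0.15 ± 0.18 in males and by -0.0021 ± 0.18 in females, with overlapping groups at 35.0 to 56.1 CPM with PRL and 30.7 to 53.0 CPM with Veh over both sexes. Stat5a and Stat5b share 608 windows of 50 bases, 8.21% of those of Stat5a, so reads from these stretches could not be placed on one of them.

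Among the feedback genes, Socs1 rose most. It had 5.99, 5.29 and 7.96 CPM in female PRL paws, against 4.20, 3.59 and 3.84 CPM in female Veh paws, and 6.36, 12.8 and 7.25 CPM in male PRL paws, against 3.93, 2.33 and 2.65 CPM in male Veh paws. Every PRL library lay above every Veh library of its sex. The log2 change was 1.56 ± 0.27 in males (edgeR adjusted p = 0.00239), 2.95-fold, 0.72 ± 0.27 in females (0.149) and 1.14 ± 0.19 on average (0.00126). Without male Veh replicate 2 the male change was 1.44 (0.0117). Socs2 had 16.5, 20.7 and 17.2 CPM in male PRL paws, against 9.35, 9.61 and 12.5 CPM in male Veh paws, without overlap, and 13.9, 22.8 and 23.8 CPM in female PRL paws, against 19.0, 14.8 and 10.4 CPM in female Veh paws, with overlap. It rose by 0.81 ± 0.24 on the log2 scale in males (adjusted p = 0.0341) and by 0.63 ± 0.17 on average (0.0188). The change in females was 0.45 ± 0.24 (0.319). The male call of Socs2 was lost without male PRL replicate 1 (adjusted p = 0.0702), 2 (0.102) or 3 (0.0684) and without male Veh replicate 1 (0.116) or 2 (0.0877). The call on its average held without each library in turn.

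Cish and Socs3 gave no call in paw. Cish had 28.6, 33.2 and 25.7 CPM in male PRL paws, against 19.5, 12.8 and 22.1 CPM in male Veh paws, which do not overlap. It had 24.4, 21.3 and 42.6 CPM in female PRL paws, against 39.0, 35.1 and 29.6 CPM in female Veh paws, which do. The log2 change was 0.70 ± 0.25 in males (edgeR adjusted p = 0.0616) and -0.23 ± 0.24 in females (0.647). Of 13 alternatives, 3 called the male change: DESeq2, muscle as a covariate and a fit of the 2 male groups alone. Without male Veh replicate 2 the male change was 0.52 (edgeR adjusted p = 0.191). Socs3 had 47.9, 34.9 and 51.7 CPM in female PRL paws, all below the 62.4, 59.0 and 81.5 CPM of female Veh paws, a log2 change of -0.60 ± 0.23 that missed the threshold (0.169). In males it had 56.6, 62.1 and 72.0 CPM with PRL, against 38.7, 68.7 and 73.1 CPM with Veh, a change of 0.10 ± 0.23. Without the first of these male Veh libraries the average over the sexes was -0.38 (adjusted p = 0.0418), against -0.25 (0.305) with it. Pim1 changed by 0.06 ± 0.16 in females and by -0.23 ± 0.16 in males (adjusted p = 0.884 in females and 0.346 in males), at 85.7 to 166.7 CPM with PRL and 101.5 to 146.1 CPM with Veh over both sexes. The intervals of Pim1 still allow a log2 change of up to 0.42 in females and down to -0.59 in males.

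**Figure D3:**
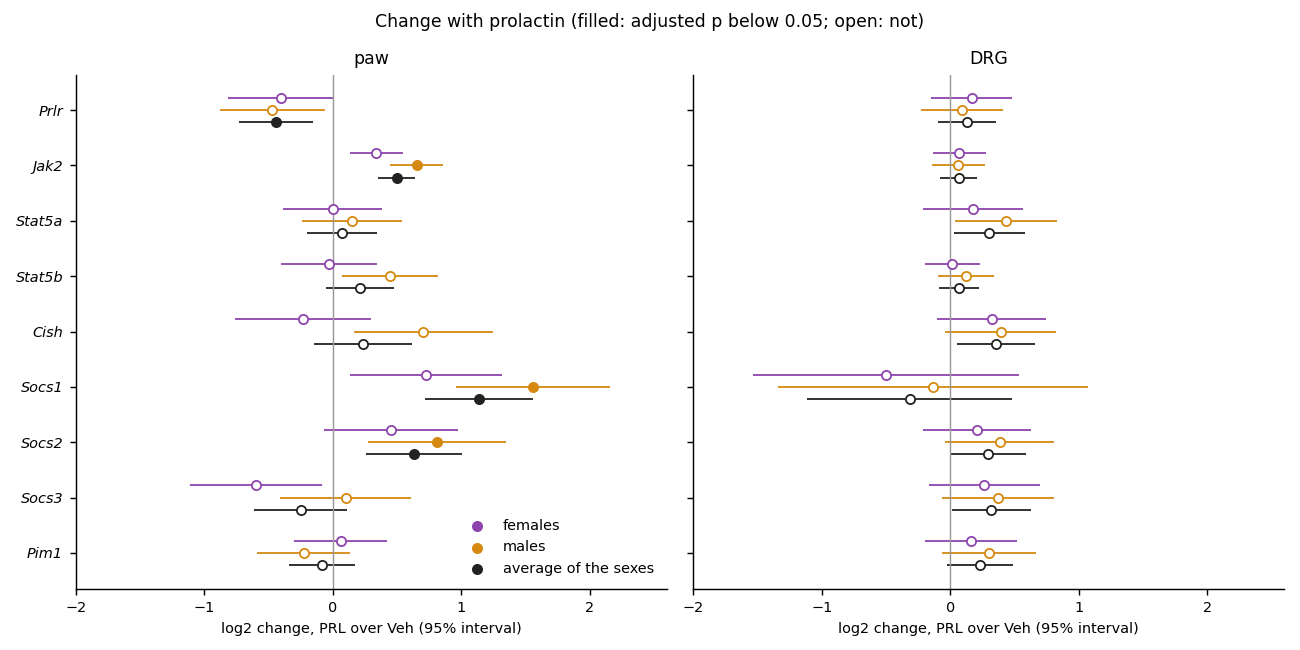
Log2 change with prolactin, PRL over Veh, of the 9 member genes in paw and DRG, with the 95% interval of edgeR's fit, for females, males and the average of the sexes. Filled points passed an adjusted p of 0.05. In paw, Jak2, Socs1 and Socs2 on average lie right of 0 and Prlr left of it, and in DRG every point is open.

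No member differed between the sexes in its paw response at an adjusted p below 0.05, where 0.00679% of all genes did. DESeq2 also called none. At an unadjusted p below 0.05 there were 2, Cish and Jak2, where 13.1% of all genes had one. The difference, female minus male change, was -0.94 ± 0.35 for Cish (edgeR adjusted p = 0.312), with the female change below 0 and the male change above it, and -0.32 ± 0.13 for Jak2 (adjusted p = 0.357). It was -0.84 ± 0.38 for Socs1 and -0.70 ± 0.33 for Socs3, with adjusted p of 0.385 and 0.395. For Prlr it was 0.07, with an interval from -0.51 to 0.64. So the call in males and its lack in females does not show that Jak2, Socs1 or Socs2 responded differently.

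Between vehicle paws, females against males, no member passed the test by edgeR or DESeq2, where 0.109% of all genes did by edgeR. At an unadjusted p below 0.05 there were 2, the receptor and Cish, where 8.1% of all genes had one. Prlr was at 91.8 to 104.3 CPM in females, all above the 66.5 to 72.2 CPM of males, a log2 difference of 0.41 ± 0.19 (edgeR adjusted p = 0.605). Cish was at 29.6 to 39.0 CPM in females, all above the 12.8 to 22.1 CPM of males, a difference of 0.84 ± 0.25 (0.349). Groups of 3 did not overlap for 19.2% of all genes in that comparison.

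Markers of other cell types and states moved with prolactin in paw, and their part in the changes of the members was not tested. Averaged over the sexes, 14.9% of all genes rose and 10% fell there. All 10 macrophage and leukocyte markers rose on average, with summed levels of 1024 to 1431 CPM in female PRL and 1020 to 1259 CPM in male PRL paws, against 395.7 to 527.5 CPM in female Veh and 441.9 to 704.4 CPM in male Veh paws. The 4 T cell markers tested of 5 rose, with sums of 13.6 to 25.9 CPM in female PRL and 10.27 to 18.3 CPM in male PRL paws, against 3.07 to 3.56 CPM in female Veh and 2.33 to 2.97 CPM in male Veh paws. All 8 interferon response genes rose, with sums of 106.1 to 199.8 CPM in female PRL and 172.4 to 231.0 CPM in male PRL paws, against 60.1 to 70.2 CPM in female Veh and 44.9 to 56.5 CPM in male Veh paws. The PRL and Veh ranges of these 3 sums did not overlap in either sex. Of 7 neutrophil markers, 4 were tested and rose, and Elane was at 0 in female Veh and in male PRL paws. Fibroblast sums were 16680 to 24180 CPM in female PRL paws, against 6484 to 8512 CPM in female Veh paws, and 18730 to 30080 CPM in male PRL paws, against 9610 to 15500 CPM in male Veh paws. Keratinocyte sums, which come from the cells that make up most of the epidermis, were 31270 to 41560 CPM in male PRL paws, against 51210 to 60420 CPM in male Veh paws, and overlapped in females at 35610 to 48300 CPM with PRL and 38680 to 51460 CPM with Veh. Skeletal muscle sums were 727.9 to 14670 CPM in female PRL paws, against 4038 to 14170 CPM in female Veh paws. They were 15070 to 31260 CPM in male PRL paws, against 4180 to 18100 CPM in male Veh paws. The ranges overlapped in both sexes. The median with PRL was lower in females (5284 against 10280 CPM) and higher in males (21290 against 14750 CPM).

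**Figure D4:**
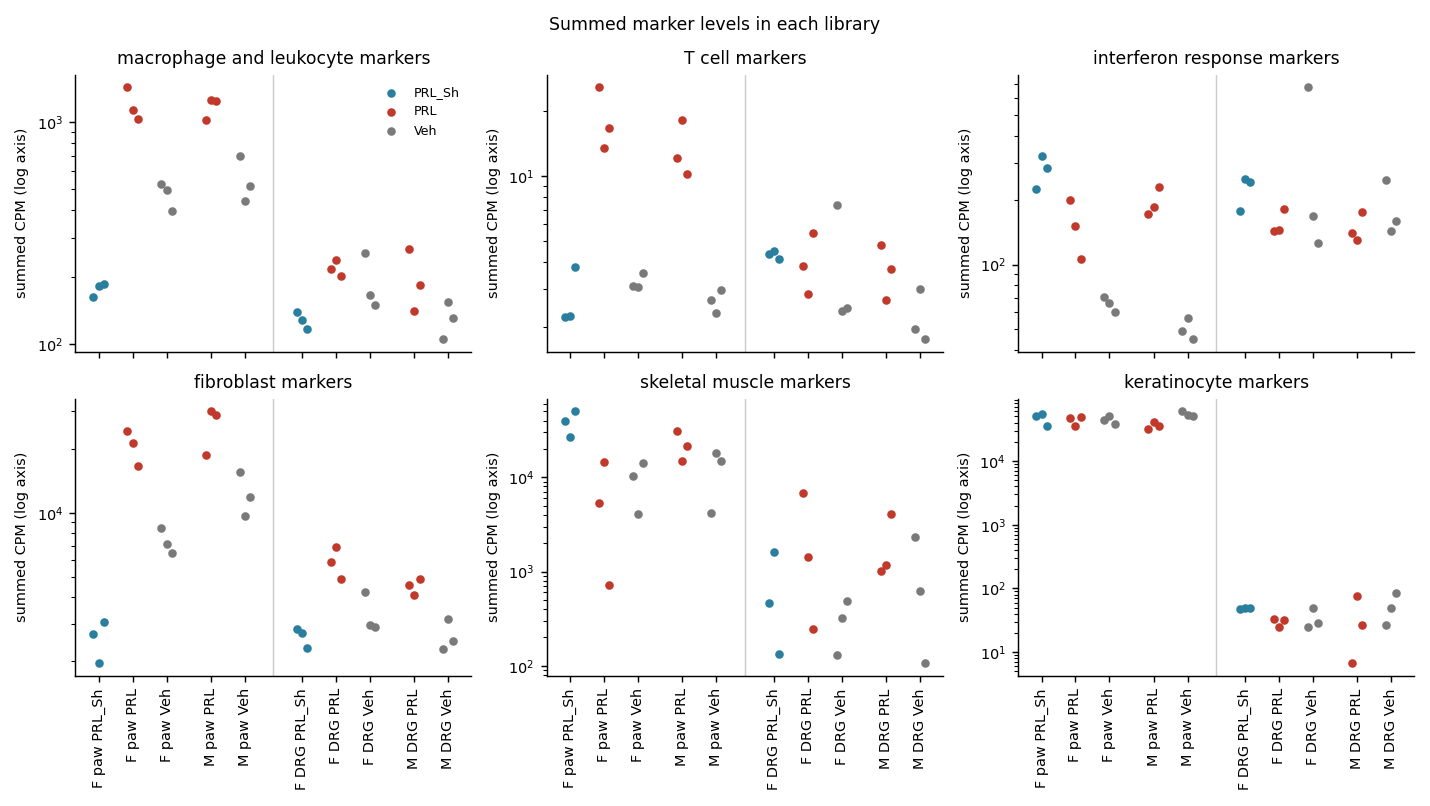
Summed CPM of 6 marker lists in every library, on a log axis, with paw groups to the left of the grey line and DRG groups to its right. Each point is 1 library. In paw, the macrophage and leukocyte, T cell and interferon sums of PRL libraries lie above those of Veh libraries in both sexes, and in DRG female Veh replicate 1 stands apart in the interferon panel at 676.6 CPM.

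In DRG, no member passed the test for prolactin in females, in males or averaged over the sexes, where 0.653%, 0.517% and 3.60% of all genes tested did by edgeR. DESeq2 called none of the 9 either, and at an unadjusted p below 0.05 there were 0 in females, 1 in males (14.9% of all genes) and 3 on average (21.5%). Of the 9 average log2 changes, 8 were above 0, where 49.9% of all genes were, and their median was 0.23. Markers of other cells moved with prolactin in DRG as well, and their part in this lean was not tested. Schwann and satellite glia sums were 21180 to 27680 CPM in female PRL and 22480 to 25400 CPM in male PRL ganglia, against 16070 to 18190 CPM in female Veh and 13600 to 19320 CPM in male Veh ganglia. Fibroblast sums were 4894 to 6876 CPM in female PRL and 4078 to 4872 CPM in male PRL ganglia, against 2902 to 4243 CPM in female Veh and 2275 to 3156 CPM in male Veh ganglia. On average 2 of 7 glial and 4 of 6 fibroblast markers rose, where 314 of all 14705 genes tested did. None of 12 muscle genes passed, with sums of 245.7 to 6838 CPM in female PRL and 1008 to 4115 CPM in male PRL ganglia, against 128.6 to 488.7 CPM in female Veh and 107.0 to 2321 CPM in male Veh ganglia. The 3 members with an unadjusted p below 0.05 were Cish, Socs3 and Stat5a. Cish had 6.30, 8.21 and 9.94 CPM in female PRL ganglia, against 7.86, 5.82 and 6.16 CPM in female Veh ganglia, and 6.79, 7.37 and 8.14 CPM in male PRL ganglia, against 5.63, 4.34 and 6.95 CPM in male Veh ganglia, overlapping in both sexes. Its average log2 change was 0.36 ± 0.14 (edgeR adjusted p = 0.166), from 0.32 ± 0.20 in females and 0.39 ± 0.20 in males. Stat5a had 10.8, 9.41 and 12.1 CPM in male PRL ganglia, all above the 6.75, 8.79 and 8.40 CPM of male Veh ganglia (0.43 ± 0.18, adjusted p = 0.299), and its average was 0.31 ± 0.13 (0.193). It was the only member without overlap in males, as 19.8% of all genes were, and Pim1 the only one in females, as 16% were. Pim1 had 10.02, 10.2 and 10.4 CPM in female PRL ganglia, against 9.70, 8.69 and 9.39 CPM in female Veh ganglia.

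No change of the receptor was detected in DRG. Prlr had 12.5, 13.8 and 16.9 CPM in female PRL ganglia, against 11.5, 13.2 and 14.3 CPM in female Veh ganglia, and 15.4, 15.1 and 12.5 CPM in male PRL ganglia, against 15.5, 11.2 and 13.2 CPM in male Veh ganglia. Its average log2 change was 0.13 ± 0.10, with an interval from -0.10 to 0.35 (edgeR adjusted p = 0.514). Jak2 changed by 0.07 ± 0.07 on average, with an interval from -0.08 to 0.21. Socs2 averaged a change of 0.29 ± 0.14 (0.236) and Socs3 of 0.32 ± 0.14 (0.213). Socs1 was near the floor of these libraries, at 5 to 34 reads per library, and its change in females was -0.50 ± 0.48. Female Veh replicate 1 held 3.299 CPM of Socs1, against 0.902 and 0.978 CPM in the other female Veh ganglia, and it also held the highest Veh levels of Stat5a (13.4 CPM), Cish (7.86 CPM) and Socs3 (14.4 CPM). In that library the 8 interferon response genes summed to 676.6 CPM, against 126.8 and 168.4 CPM in the other female Veh ganglia. Other sums were high in it too. Adipocyte markers summed to 287.7 CPM, against 39.0 and 67.1 CPM, and T cell markers to 7.375 CPM, against 2.377 and 2.444 CPM. Macrophage and leukocyte markers summed to 258.8 CPM, against 150.2 and 166.6 CPM, and fibroblast markers to 4243 CPM, against 2902 and 2948 CPM. The part of any of these in its member levels was not tested. Without that library, Socs3 passed on average at 0.45 (adjusted p = 0.0447) and the female change of Socs1 was 0.35. No member differed between the sexes in its DRG response, where edgeR called 0% of all genes and 3.65% had an unadjusted p below 0.05, or between female and male Veh ganglia, where 0.0544% of all genes passed. In both, DESeq2 called no member and no member had an unadjusted p below 0.05.

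The glucocorticoid response genes, among them Fkbp5 and Tsc22d3, summed lower in every PRL library than in any Veh library of the same sex and tissue, and their part in the changes of the members was not tested. Their sum was 325.1 to 450.0 CPM in female PRL and 315.7 to 410.2 CPM in male PRL ganglia, against 835.2 to 980.6 CPM in female Veh and 570.3 to 851.5 CPM in male Veh ganglia. In paw it was 671.0 to 967.6 CPM in female PRL and 620.2 to 697.6 CPM in male PRL libraries, against 1153 to 1317 CPM in female Veh and 1106 to 1368 CPM in male Veh libraries. The PRL_Sh libraries, made with another kit, had sums of 372.4 to 460.0 CPM in DRG and 1146 to 1368 CPM in paw. Those PRL_Sh paws overlapped the female Veh paws.

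The change with prolactin differed between paw and DRG for 3 members, averaged over the sexes in a fit of both tissues, where 14.9% of all genes tested differed, 9.8% towards paw and 5.13% towards DRG. Jak2 rose more in paw, by 0.45 ± 0.09 on the log2 scale (edgeR adjusted p = 0.00247), and kept that call in all 30 alternatives. The Socs1 change was 1.47 ± 0.41 higher in paw (0.0177), and its average change in DRG was -0.32 ± 0.37. This difference was 1.19 (0.0569) with muscle as a covariate. Leaving out 1 library it ranged from 1.06 to 1.63, with edgeR adjusted p up to 0.0470. Prlr went lower in paw than in DRG, by -0.55 ± 0.18 (0.0489). This call lay at the threshold: it was lost without any of 19 of the 24 libraries, with adjusted p up to 0.0958, and was kept without female DRG PRL replicate 1, female DRG Veh replicate 3, female paw PRL replicate 3, male DRG PRL replicate 3 or male DRG Veh replicate 1. Socs3 differed by -0.55 ± 0.24 (adjusted p = 0.125), and passed without male paw Veh replicate 1 (-0.69, adjusted p = 0.0187).

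Female PRL_Sh libraries were set against female PRL libraries of the same tissue. The kit differed between these groups as well as the label, so the label and the kit cannot be told apart, and most of all genes moved: 61.6% passed in DRG and 58.5% in paw. Against that background 2 of 9 members passed in DRG, both lower (32.3% of all genes), and 4 of 9 in paw, 1 higher (29.4%) and 3 lower (29%). Prlr was lower in PRL_Sh in both tissues, at 3.31, 4.23 and 5.09 CPM in PRL_Sh ganglia, against 12.5, 13.8 and 16.9 CPM in PRL ganglia, a log2 difference of -1.99 ± 0.20 (edgeR adjusted p = 8.66e-05). In paw it had 32.7, 29.9 and 40.7 CPM in PRL_Sh, against 52.4, 65.4 and 102.1 CPM in PRL, a difference of -1.10 ± 0.26 (0.00895). Jak2 was also lower, at 36.3 to 45.4 CPM in PRL_Sh ganglia against 60.2 to 69.8 CPM in PRL ganglia (-0.87 ± 0.10, adjusted p = 1.94e-04), and at 59.2 to 73.4 CPM in PRL_Sh paws against 88.8 to 111.3 CPM in PRL paws (-0.67 ± 0.14, 0.00452). The groups did not overlap for either gene in either tissue.

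In paw, Stat5b had 134.4, 109.7 and 172.9 CPM in PRL_Sh, all above the 75.1, 92.4 and 66.8 CPM of PRL, a log2 difference of 0.82 ± 0.21 (edgeR adjusted p = 0.0129). Socs3 had 26.3, 23.7 and 34.3 CPM in PRL_Sh, all below the 47.9, 34.9 and 51.7 CPM of PRL (-0.68 ± 0.20, 0.0206). Paw groups did not overlap for these 4 members, as for 65.8% of all genes. The Socs3 call was lost without PRL_Sh replicate 1 (adjusted p = 0.0673) or 2 (0.0516) or PRL replicate 1 (0.0549). The remaining members had no call, with log2 differences from -0.21 for Socs2 to 0.33 for Socs1 in DRG and from -0.47 for Socs1 to 0.09 for Stat5a in paw. In DRG the plain CPM of Stat5b, Socs1, Socs3 and Pim1 did not overlap between PRL_Sh and PRL either, as for 72.5% of all genes, while their scaled differences did not pass. Macrophage and leukocyte markers summed to 163.7 to 187.4 CPM in PRL_Sh paws, against 1024 to 1431 CPM in PRL paws. Skeletal muscle genes summed to 27070 to 50360 CPM in PRL_Sh paws, against 727.9 to 14670 CPM in PRL paws. Fibroblast sums were 1961 to 3060 CPM in PRL_Sh paws, against 16680 to 24180 CPM in PRL paws, and 2310 to 2839 CPM in PRL_Sh ganglia, against 4894 to 6876 CPM in PRL ganglia. Sensory neuron sums were 7138 to 7882 CPM in PRL_Sh ganglia, against 4245 to 5026 CPM in PRL ganglia, and macrophage and leukocyte sums were 117.8 to 140.1 CPM in PRL_Sh ganglia, against 202.3 to 240.6 CPM in PRL ganglia. The part of these cells in the differences was not tested.

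The wider pathway was followed in 65 further genes, grouped by role. This list and its roles were drawn up with earlier results of these data known. Averaged over the sexes in paw, 22 of the 55 tested rose and 3 fell, where 24.9% of all genes passed, and their median log2 change was 0.17. Of the 12 tested receptors that signal through JAK2 or STAT5, 10 rose, where 14.9% of all genes did. The 3 genes with the smallest p all rose: Ptprc (CD45, a phosphatase of leukocytes that acts on JAKs) by 1.60 ± 0.07, Il2rg (the common gamma chain of interleukin receptors) by 1.97 ± 0.15 and Igf1 (an insulin-like growth factor that STAT5 induces in liver) by 1.17 ± 0.10 (edgeR adjusted p from 6.09e-07 for Ptprc to 1.5e-05 for Igf1). Ptprc also stands in the leukocyte list above. In females 14 rose and 1 fell, where 7.55% of all genes passed, and in males 20 rose and 5 fell, where 22.4% did. No gene of the list differed between the sexes, where 0.00679% of all genes did. Of 8 ligands, 2 could be tested in paw and neither passed, and Prl itself had too few reads to be tested in any comparison.

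By role, averaged over the sexes in paw, 2 of the 3 other kinases, 3 of the 5 other STATs and 1 of the 4 other SOCS genes rose. So did 2 of the 11 other inhibitors and 2 of the 5 adaptors, where 14.9% of all genes rose. Of 13 other STAT5 targets tested, 2 rose and 3 fell, where 10% of all genes fell. In DRG, 1 of the 51 tested rose and 4 fell, where 3.60% of all genes passed. Igf1 rose there by 0.93 ± 0.15 (edgeR adjusted p = 0.00416). Bcl6, a repressor whose gene STAT5 is known to repress, fell by 0.52 on the log2 scale (adjusted p = 0.00107), Bcl2l1, a survival gene, fell by 0.46 (0.00113), and Pim3, a relative of Pim1, fell by 0.30 (0.0163). In female ganglia 1 of 51 rose, Igf1, and 3 fell, Bcl6, Bcl2l1 and Pim3, where 0.653% of all genes passed. In male ganglia 0 rose and 1 fell, Bcl6, at -0.56 ± 0.10 (edgeR adjusted p = 0.0231), where 0.517% of all genes passed. Between tissues, the paw change exceeded the DRG change for 21 of 56 genes, against 9.8% of all genes. It fell below the DRG change for 1, Myc, at -0.79 ± 0.12, against 5.13% of all genes.

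**Figure D5:**
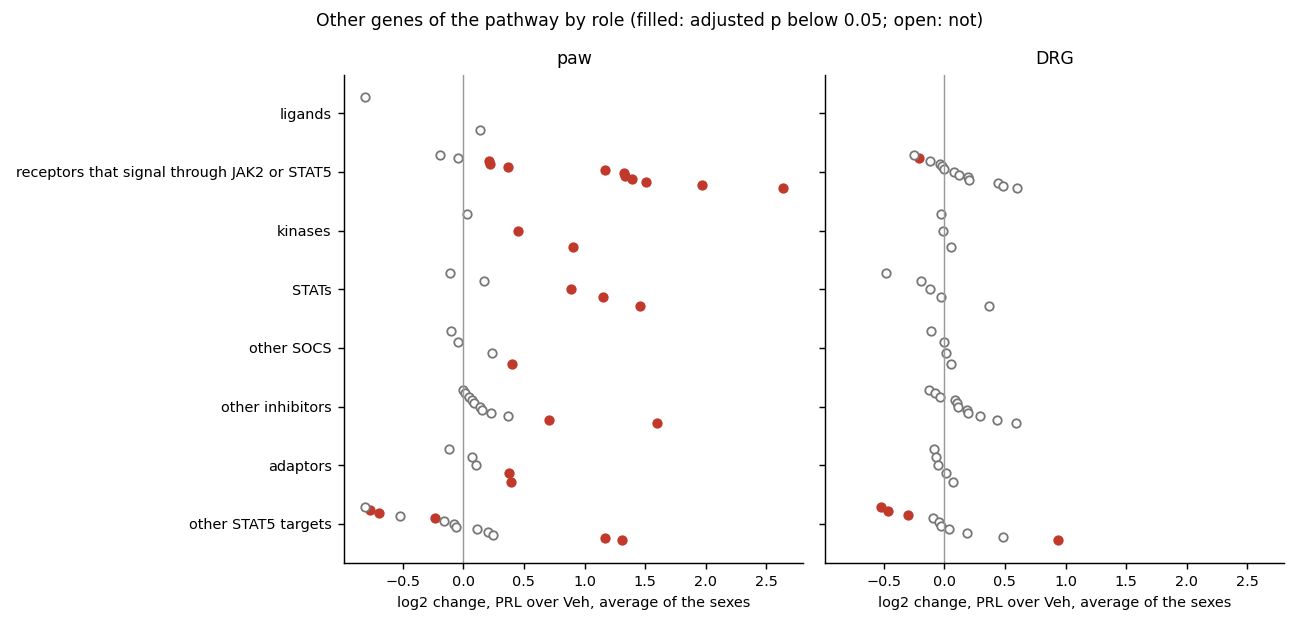
Log2 change with prolactin, PRL over Veh, averaged over the sexes, of the tested genes of the wider pathway in paw and DRG, in rows by role. Each point is 1 gene, filled where the adjusted p was below 0.05, and the height within a row has no meaning. In paw the filled receptor points all lie right of 0, and in DRG 5 points are filled.

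Genes whose level ran most like that of Prlr over the 12 rRNA-depleted libraries of a tissue were looked up, as a description. Predicted genes were passed over. In DRG these were Il31ra (r = 0.936), Hras1 (0.899), Syt12 (0.875), Pcdh10 (0.872) and Kcnh6 (0.870), by Pearson's r of log2 CPM over 12494 candidates. Il31ra encodes the interleukin-31 receptor of itch-sensing neurons and stood at a mean of 31.3 CPM. In paw the nearest were Dusp11 (0.963), Nup107 (0.958), Ddx3x (0.949), Hspa1b (0.949) and Rpl17 (0.945), over 12380 candidates. For Cish the nearest were Nfatc2ip (0.900), Egr3 (0.859), Adcy6 (0.857), Dyrk1b (0.853) and H13 (0.849) in DRG, and Scarna17 (0.889), Tsta3 (0.880), H1fx (0.873), Snx11 (0.864) and Trim39 (0.859) in paw. The 12 libraries of a tissue share kit, depth range and treatment groups.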

How the data were processed

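RNA of 30 libraries, 500 ng each, was sequenced as single reads of 50 nt from strand-marking kits, per the labels' protocols. The submitters' processing notes name bcl2fastq, TopHat2, HTSeq and the mouse assembly mm9. For these, versions, counting mode and strand use are not given here, and the summary lines of the PRL_Sh files are written differently from the others. The deposited values are raw read counts per gene, not normalized. Groups came from the sample labels. The 5 summary lines per library (31.7 to 55.5% of reads multiply placed and 9.45 to 35.8% outside genes, for example) were left out of totals.

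Counts were tested with edgeR 4.0.16 (R 4.3.3): TMM scaling, filterByExpr, quasi-likelihood F tests and Benjamini-Hochberg adjustment over all genes tested, at 0.05. The 12 rRNA-depleted libraries of a tissue were fitted together, the 24 of both tissues together for paw against DRG, and 6 for each PRL_Sh comparison, 15 comparisons in all. SE is the log2 change over the root of F. Levels in CPM are not TMM-scaled. Alternatives were DESeq2 1.42.0, RLE scaling, other filters, only the groups compared, a muscle covariate, a replicate block and leaving out each library. The muscle covariate was the mean log2 CPM of the muscle genes, and it was not run on the PRL_Sh comparisons. The functions were tested on simulated data. Named genes are the 9 members, up to 4 pathway genes per comparison by smallest p, and the 5 genes most like Prlr or Cish; a result that this rule names is not reported here. Members and lists were chosen with earlier results of these data known. Exon lengths and overlaps are from GENCODE on GRCm38. There, 14.5% of Pim1 exon bases overlap the antisense gene Gm26885 and 7.46% of those of Cish overlap Gm17041, whose reads cannot be told apart without strand.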

Additional observations from a re-analysis of the deposited data

Results flagged for a closer look

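The change with prolactin differed between paw and DRG for 3 of the 9 genes, by a test of the difference itself (edgeR, both sexes averaged). The Prlr change was lower in paw than in DRG, a log2 difference of -0.55 (adjusted p = 0.0489), with changes of -0.44 in paw and 0.13 in DRG in the fits of each tissue. Jak2 changed by 0.45 more in paw (0.00247), with 0.50 in paw and 0.07 in DRG. Socs1 changed by 1.47 more in paw (0.0177), with 1.14 in paw and -0.32 in DRG. The Prlr call was lost without any of 19 of the 24 libraries. Socs1 had 5 to 34 reads per rRNA-depleted DRG library, and its difference missed the threshold with muscle as a covariate (1.19, adjusted p = 0.0569). Groups of 3 libraries are too small for a test of single outlying libraries.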

How the results depend on the processing

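Of 69 gene results given above, 32 passed the threshold, 25 of them in every alternative run on them and none with a reversed direction. For results of the PRL_Sh comparisons, the muscle covariate was not among these alternatives. Over all 69, 988 of 1055 alternatives kept direction and side of the threshold, 37 lost a call, 14 gained one and 16 reversed, in 7 results. The number of members called in paw was 1 by DESeq2 and 1 with the muscle covariate in females, against 0, and 5 by DESeq2 and 5 with only the groups compared in males, against 3. Leaving out 1 library gave 0 to 1 in female paw and 0 to 1 in the DRG average. The cause was not tested.

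No result that reversed had passed the threshold. With the muscle covariate, in female paw, Stat5b was 0.14 and Pim1 was -0.15, and the sex difference of Prlr was -0.25. Leaving out 1 library, female paw changes spanned -0.20 to 0.14 for Stat5a, -0.18 to 0.070 for Stat5b and -0.13 to 0.22 for Pim1, the male Socs3 change spanned -0.16 to 0.25, the paw sex difference of Prlr -0.25 to 0.27, and in DRG the male Prlr change -0.012 to 0.23 and the female Socs1 change -0.82 to 0.35.

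Over all genes, calls by DESeq2 were 205, 308 and 837 in DRG (females, males, average), against 96, 76 and 530 by edgeR, and with the muscle covariate 36, 40 and 193. Fits of only the groups compared gave 34 in female DRG and 597 (against 1111) in female paw. For the paw sex difference DESeq2 called 161, muscle 6 and the replicate block 0, against 1, and for Veh paws of females against males 111, 60 and 8, against 16. Leaving out 1 library gave 20 to 171, 25 to 73 and 271 to 992 in DRG, 579 to 1505 in female and 2017 to 2792 in male paw, and 5 to 10 for Veh paws.

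Same-numbered libraries did not deviate together in every pair of groups, and the numbers were used as names only. With so few libraries per group, this check cannot tell whether paw and DRG libraries came from the same mice. The fit of both tissues treated them as independent. With a replicate block, Socs2 in male paw (0.81, adjusted p = 0.0600), Stat5b in PRL_Sh paw (0.81, 0.0551) and Prlr between tissues (-0.56, 0.0514) missed the threshold, and no other gene result changed its call. Depth limits Socs1 in DRG, at 5 to 34 reads.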
